A study of Mus musculus with 8 samples.

Results

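Hyaluronan, a long sugar polymer without a protein core, fills the space between the cells of the dermis and epidermis. It is made at the plasma membrane by hyaluronan synthases, cut by hyaluronidases, and organised by proteins that bind it, among them the large proteoglycan versican. Synthesis and breakdown run side by side in skin, and versican is a known product of the dermal papilla at the base of the hair follicle. The 3 genes described here stand for these steps. Has1 encodes a hyaluronan synthase, Hyal2 a hyaluronidase anchored at the cell surface, and Vcan the core protein of versican. They are 3 of 6587 genes that could be named on the array, each with 1 probe, and were taken as the rows whose RefSeq accession maps to these symbols. The genes were chosen by their measured ratios in an earlier reading of the same 8 arrays, so their ratios are given as a description, with no test.

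Skin RNA of near naked hairless mutant mice and of wild type mice, both aged 7 days, was compared on 8 spotted arrays with 2 colours. Near naked hairless is a mutation of Hr, the gene of a corepressor of nuclear receptors that acts in the hair follicle. No label gives the allele dose, strain or sex of the animals. According to the design text, 5 biological replicates came from 1 litter. Which animal went on which array is not recorded, so some of the 8 arrays must share an animal. Cy5 labelled the mutant RNA on arrays 2, 4, 6 and 7, and Cy3 did so on arrays 1, 3, 5 and 8. Ratios are on a log2 scale and are read as mutant over wild type. That direction is the likely one but is nowhere stated, and with the opposite sign every direction given here would turn.

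An array held values for 41.3% to 88.3% of its rows, and the spread of an array (SD) ran from 0.57 on array 5 to 1.60 on array 2. The probe of Hr had a mean of -0.17 ± 0.64 (SD, n = 6), with 3 arrays above 0 and 3 below. Of 3779 genes tested across the series, 25 passed as higher in the mutant (0.662%) and 106 as lower (2.8%), at an adjusted p below 0.05 in limma, 3.47% in all. Quantile normalization of the arrays gave 135 higher and 225 lower genes. Read as Cy5 over Cy3, the table gave 62 higher and 4 lower, so the balance of directions rests on the reading. A ratio in whole skin cannot tell fewer cells of a type from less RNA per cell. The arrays give ratios and no levels, so the tissue could be checked only by probes with values, such as those of the epidermal keratin Krt1 on 7 arrays and of the mesenchymal filament gene Vim on 8.

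As a description, and with no test of shared regulation, the sequences upstream of the 3 genes are shown. They are the 250 bases before the annotated start, read 5′ to 3′ on the gene's strand, from RefSeq on GRCm38.p6. Has1 lies at chr17:17855189-17855438 on the minus strand, Hyal2 at chr9:107568913-107569162 on the plus strand and Vcan at chr13:89742513-89742762 on the minus strand. Capitals mark matches, on either strand, to 6 motifs: TGACGTCA (the cyclic AMP response element), AGGTCA (the half-site of nuclear receptors), GGGCGG (the GC box), CCAAT (the CCAAT box), TATAAA (the TATA box) and CACGTG (the E-box).
Has1: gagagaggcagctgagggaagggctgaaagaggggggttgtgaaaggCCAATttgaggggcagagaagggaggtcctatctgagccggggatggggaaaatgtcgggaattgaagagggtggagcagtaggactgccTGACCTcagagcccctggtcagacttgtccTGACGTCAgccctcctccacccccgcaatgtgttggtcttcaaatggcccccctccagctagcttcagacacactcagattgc
Hyal2: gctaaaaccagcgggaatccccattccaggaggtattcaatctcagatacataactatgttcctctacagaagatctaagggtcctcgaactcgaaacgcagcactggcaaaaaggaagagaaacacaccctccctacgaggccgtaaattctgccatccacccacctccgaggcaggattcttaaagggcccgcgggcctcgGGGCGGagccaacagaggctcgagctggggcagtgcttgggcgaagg
Vcan: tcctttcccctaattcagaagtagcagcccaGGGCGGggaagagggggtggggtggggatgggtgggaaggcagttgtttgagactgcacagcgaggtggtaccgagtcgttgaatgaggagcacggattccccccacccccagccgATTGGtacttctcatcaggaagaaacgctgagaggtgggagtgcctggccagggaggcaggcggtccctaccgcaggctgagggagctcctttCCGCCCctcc

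Has1 held the cyclic AMP response element at -83 to -76, counted back from the start, a motif in 1.55% of 32851 promoter windows of the same length. It also held 1 nuclear receptor half-site, on the opposite strand at -113 to -108, found in 14.02% of windows, and 1 CCAAT box, found in 33.85%. Hyal2 held a single GC box, at -47 to -42, a motif of 32.74% of windows. Vcan held 2 GC boxes, at -219 to -214 and -10 to -5, and 1 CCAAT box. No marked matches overlapped. Has1 and Hyal2 shared none of the 6 motifs, while Hyal2 and Vcan shared the GC box and Has1 and Vcan the CCAAT box. TATAAA (12.37% of windows) and CACGTG (6.02%) were in none of the 3 windows. The share of G and C was 58% for Has1, 55.6% for Hyal2 and 62.4% for Vcan, against a median of 52.4% over all windows. These matches describe the letters of the windows alone.

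Has1, which adds both sugars to the growing hyaluronan chain, had the lowest fitted ratio of all 3779 genes tested. With the mutant RNA in Cy5 the log2 ratio was -6.18 on array 2, -2.75 on array 4, -1.97 on array 6 and -1.004 on array 7. With the mutant RNA in Cy3 it was -1.61 on array 1, -1.38 on array 5 and -1.74 on array 8, and array 3 held no value. The gene was lower in the mutant on all 7 arrays that measured it, and array 2 stood far below the other 6. The mean was -2.38 ± 1.76 (SD, n = 7) and the median -1.74. The fitted ratio was -2.28 ± 0.48 (SE), or 4.85-fold lower. Without array 2 it was -1.74, so that array set much of the size and none of the direction. The Cy3 arrays agreed closely, with a mean of -1.58 ± 0.18 (SD, n = 3), against -2.98 ± 2.25 (SD, n = 4) on the Cy5 arrays.

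Hyal2, which cuts long hyaluronan into shorter chains at the cell surface, was lower by a smaller and more even amount. With the mutant in Cy5 its log2 ratio was -1.35 on array 2, -2.29 on array 4, -1.17 on array 6 and -0.84 on array 7. With the mutant in Cy3 it was -1.28 on array 1, -1.13 on array 5 and -1.27 on array 8, again with no value on array 3. All 7 values were below 0, and 6 of them lay between -1.35 and -0.84, with array 4 apart. The mean was -1.33 ± 0.45 (SD, n = 7). The fitted ratio was -1.32 ± 0.21 (SE), or 2.50-fold lower, the place 52 from the lowest of 3779. The means of the orientations were -1.41 ± 0.62 (SD, n = 4) in Cy5 and -1.23 ± 0.08 (SD, n = 3) in Cy3. Across the series 4.13% of the tested genes were below 0 on every array with a value, as Has1 and Hyal2 were.

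Vcan, whose product carries chondroitin sulfate chains and binds hyaluronan through its amino-terminal domain, lay on the other side of 0. With the mutant in Cy5 the log2 ratio was 0.54 on array 2, 0.92 on array 4, 1.14 on array 6 and 0.84 on array 7. With the mutant in Cy3 it was 0.35 on array 1, -0.11 on array 5 and 2.00 on array 8. Vcan was thus above 0 on 6 of 7 arrays, even among the Cy5 arrays (0.86 ± 0.25, SD, n = 4) and scattered among the Cy3 arrays (0.75 ± 1.11, SD, n = 3). The fitted ratio was 0.81 ± 0.25 (SE), or 1.75-fold higher, the place 142 from the highest. It was 0.49 without array 8 and 1.02 without array 5. For comparison, 2.86% of the tested genes were above 0 on every array with a value, and Vcan was not one of them.

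**Figure D1:**
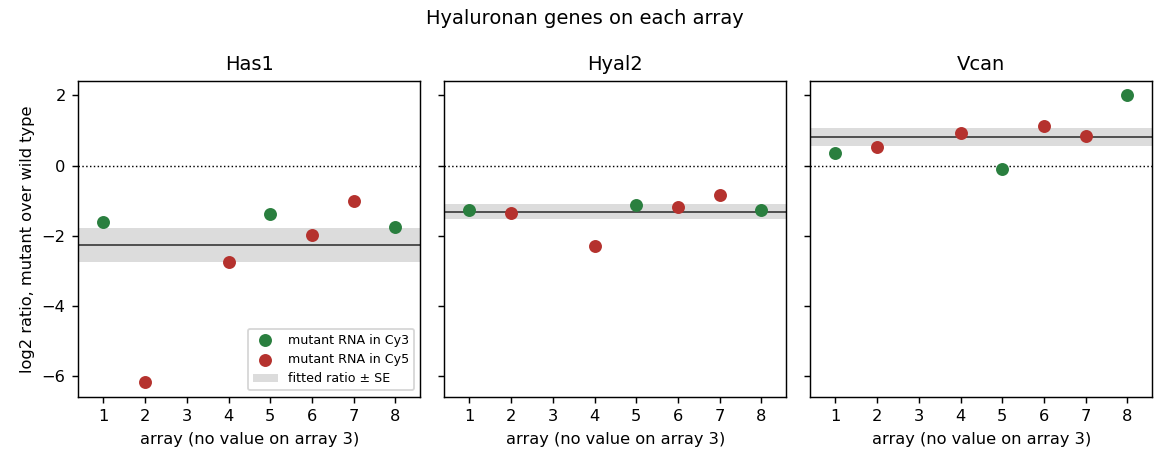
Log2 ratio of mutant over wild type (vertical axis) for Has1, Hyal2 and Vcan on each array (horizontal axis), coloured by the dye of the mutant RNA, with the fitted ratio as a line and its SE as a band. Has1 and Hyal2 lie below 0 on all 7 arrays with a value, with Has1 at -6.18 on array 2, while Vcan lies above 0 on 6 of 7.

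Because arrays differed in spread, each gene was also placed among the genes of its own array. On array 2, the widest, Has1 still had 4 of 3713 genes below it (0.108%). Its share of lower genes was at most 2.13% on arrays 1, 2, 4, 5, 6 and 8, with a median of 1.10% over the 7 arrays, and reached 10.1% on array 7. Hyal2 had a median of 4.35% of genes below it, from 1.31% on array 4 to 19.4% on array 2. The ratio of Hyal2 on array 2 was close to its mean, but the wide spread of that array left many genes lower. For Vcan the median share of lower genes was 91.2%, the lowest 40.1% on array 5 and the highest 97.7% on array 6. Its 3 lowest places were those on arrays 5, 2 and 1 (40.1%, 67.1% and 72.2%), and the other 4 arrays all placed it at 91.2% or higher.

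**Figure D2:**
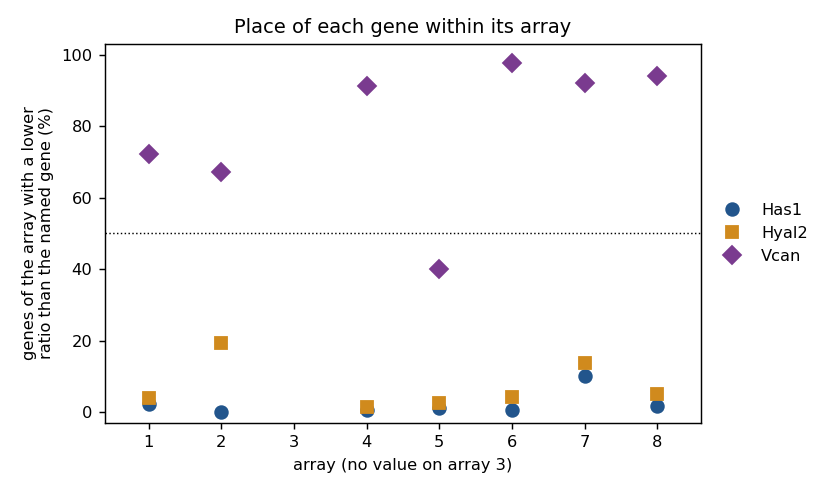
Percentage of the genes of an array with a lower ratio than the named gene (vertical axis), by array (horizontal axis). Has1 stays at or below 10.1% and Hyal2 at or below 19.4%, whereas Vcan ranges from 40.1% to 97.7%.

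The dye was tested as a measure other than the ratio by which these genes were chosen. With 4 Cy5 and 3 Cy3 arrays it is not fully independent of that ratio. The dye part of the fit, which enters with a plus where Cy5 labelled the mutant and a minus where Cy3 did, was -0.70 for Has1 (95% interval -1.77 to 0.37, adjusted p = 0.333, limma). For Hyal2 it was -0.095 (-0.56 to 0.37, adjusted p = 0.785) and for Vcan 0.056 (-0.51 to 0.62, adjusted p = 0.902). None of the 3 passed, against 1.75% of all tested genes past the adjusted threshold. None reached an unadjusted p below 0.05 either, as 1167 of the 3779 tested genes did for the dye part (limma). Had the table held Cy5 over Cy3, the dye part would be the difference between the genotypes, at -0.70, -0.095 and 0.056.

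All 3 genes lacked a value on array 3, the array with the fewest values, where 30.4% of the tested genes had none. On the 7 arrays that measured both, Has1 was lower than Hyal2 every time. The difference between the log2 ratios was -4.83 on array 2 and between -0.80 (array 6) and -0.16 (array 7) elsewhere. Over the 7 arrays the ratios of Has1 and Hyal2 had a Pearson correlation of 0.31 and a Spearman correlation of 0.82. Without array 2 the values were 0.93 and 0.77 over 6 arrays. Has1 and Vcan stood at 0.09 (Pearson) and -0.32 (Spearman), and at -0.26 and -0.60 without array 2. Hyal2 and Vcan stood at -0.092 and -0.11, and at -0.098 and -0.26 without it. These correlations describe few arrays, which share animals and dyes, and no p is given for them.

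Likeness over arrays was measured by the Pearson correlation with the 2184 genes that had values on the same 7 arrays. Closest to Has1 were Arf4, a small GTPase of the Golgi (0.99), the calcium pump gene Atp2a2 (0.99) and the BMP receptor gene Bmpr1a (0.99), with fitted ratios of -0.71, -0.56 and -0.97 that did not pass. Without array 2 their correlations were 0.92, 0.93 and 0.93. Closest to Hyal2 were the myosin gene Myo5a (0.89), the chaperonin subunit gene Cct7 (0.89) and Rnaseh2c, a subunit of ribonuclease H2 (0.87). Of these, Cct7 at -1.47 (adjusted p = 0.00896) and Rnaseh2c at -1.41 (adjusted p = 0.00625) were lower past the threshold, and Myo5a at -0.10 did not pass. Closest to Vcan were the protease gene Furin, the membrane protein gene Emp1 and Pdzrn3 (0.97 each), with fitted ratios of 0.40, 0.30 and 0.15 that did not pass.

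The other genes of the pathway came from 7 lists with 71 gene names. A probe was named for 44 of these, and 25 had enough values for the fit, 22 without Has1, Hyal2 and Vcan. Of the 22, 1 was higher past the threshold, none was lower and 21 did not pass (limma), against 3.47% called over all genes. An unadjusted p below 0.05 was reached by 5 of the 22 (22.7%), near the 19.5% of all tested genes that reached it. Their median fitted ratio was 0.19, beside 0.05 over all genes tested. Of the 22, 14 were above 0 and 8 below, and 44.75% of all tested genes were below 0. The ratios of Has1 at -2.28 and Hyal2 at -1.32 lay below all 22, which ran from -0.54 to 0.75. That of Vcan at 0.81 ± 0.25 (SE) lay only just above the highest, Fbn1 at 0.75 ± 0.19. Has1, Hyal2 and Vcan were chosen by their ratios, so these places follow in part from the choice.

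Among the synthases, Has3, which makes shorter chains and is known from keratinocytes, was the 1 other gene with a fit. Its log2 ratio was -0.49, 0.31, -0.74 and -0.34 on arrays 2, 4, 6 and 7, and 0.45, 1.34 and 0.82 on arrays 1, 3 and 5. It was above 0 on all 3 Cy3 arrays and on 1 of the 4 Cy5 arrays, with a fitted ratio of 0.28 ± 0.21 (SE, adjusted p = 0.491) and a dye part of -0.59 (adjusted p = 0.0937). Has2, the main synthase of dermal fibroblasts, had a probe without a value on any array.

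Of the enzymes that supply the sugar nucleotides, 4 were tested and none passed, with 3 above 0 and 1 below. Ugdh, which makes the glucuronic acid precursor, was the lowest at -0.54 ± 0.20 (SE, adjusted p = 0.173). It was below 0 on 7 of 8 arrays, lowest at -1.35 on array 2, and at 0.58 on array 3, an array on which Has1 and Hyal2 had no value. Gnpnat1, an enzyme of the N-acetylglucosamine branch, was the highest at 0.48 ± 0.27 (adjusted p = 0.372). Gfpt2, which opens that branch, had too few values for the fit and was above 0 on 6 of 6 arrays, from 0.03 on array 5 to 4.38 on array 8.

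Of the genes for breakdown, Hyal1 and the lysosomal enzyme gene Gusb were tested beside Hyal2, and neither passed. Hyal1, the lysosomal hyaluronidase, is the next protein-coding gene after Hyal2 on chromosome 9. Its log2 ratio was -1.82, -0.49, -0.83 and -0.90 on the Cy5 arrays 2, 4, 6 and 7, and -0.16, 1.74, 0.50 and -0.19 on the Cy3 arrays 1, 3, 5 and 8. It was thus below 0 on all 4 Cy5 arrays and divided on the Cy3 arrays. Its fitted ratio was -0.27 ± 0.24 (SE, adjusted p = 0.572) and its dye part -0.74 (adjusted p = 0.0817), whereas Hyal2 was low in both orientations. Gusb stood at 0.28 ± 0.25 (adjusted p = 0.571). Without a fit, Hexa, the gene of a lysosomal enzyme, was below 0 on 5 of 5 arrays (mean -0.53 ± 0.31, SD). Cemip, which takes part in hyaluronan depolymerization in skin, was at -0.18 ± 0.45 (SD, n = 5).

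The neighbours on the chromosome were read next. Of the 4 protein-coding genes on each side of Hyal2, 5 were tested and none passed, with ratios from -0.27 for Hyal1 to 0.40 for Naa80. Ifrd2, without a fit, was above 0 on 6 of 6 arrays, with a mean of 0.91. Around Has1, 3 genes of the formyl peptide receptor cluster were tested and none passed, from -1.03 for Fpr1 to 0.63 for Fpr2. Without a fit, Lix1 was below 0 on 5 of 6 arrays (mean -1.53) and Fpr-rs4 on 4 of 6 (mean -1.24). Around Vcan 3 were tested and none passed, from -0.13 for Cox7c to 0.48 for Rps23. Hapln1, the link protein gene beside Vcan, had values on 3 arrays, with a mean of 0.22 ± 0.55 (SD).

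Among receptors and binding proteins no gene passed. Hmmr, the receptor for hyaluronan-mediated motility and a gene of dividing cells, was below 0 on 6 of 6 arrays. Its lowest value was -1.48, on array 7, and its highest -0.08, on array 5, with a fitted ratio of -0.48 ± 0.23 (SE, adjusted p = 0.293). Tlr2, an innate receptor reported to sense hyaluronan fragments, stood at -0.05, and Ptprc, a leukocyte marker also on the list, at 0.57 (adjusted p = 0.249) with 4 arrays above 0 and 4 below. The main receptor gene, Cd44, was not matched by accession and is not analysed here. The proteins that cross-link hyaluronan in the matrix had 3 genes tested, from -0.16 for Ambp to 0.18 for Itih2, whose products are parts of inter-alpha-trypsin inhibitor. Tnfaip6, which transfers the heavy chains of that complex to hyaluronan, was at -0.01 ± 0.21 (SD, n = 4) without a fit. Ptx3, which joins this matrix, was below 0 on 5 of 5 arrays, from -1.10 to -0.41.

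Vcan was set beside the other lecticans and the partners of versican. Ncan, the neural lectican, was at 0.26 ± 0.17 (SE, adjusted p = 0.418), and Acan at 0.02 ± 0.41 (SD, n = 5) had no fit. Among 8 tested proteases and partners of versican, 6 were above 0 and 1 passed as higher, beside 0.662% called higher over all genes. It was Fbn1, the gene of fibrillin-1, to which versican binds. Its log2 ratio was 1.97, 1.33, 0.86 and 1.40 on the Cy5 arrays 2, 4, 6 and 7, and 0.07, -0.27, -0.02 and 0.64 on the Cy3 arrays 1, 3, 5 and 8. The Cy5 arrays were all higher than the Cy3 arrays, and the fitted ratio was 0.75 ± 0.19 (SE, adjusted p = 0.0496), beside a dye part of 0.64 (adjusted p = 0.0680). This call was lost without any 1 of the 8 arrays (adjusted p from 0.0683 to 0.158), in fits that also tested more genes. It was also lost with arrays centred on their medians (0.0623). With all 8 arrays kept and only 2 values needed in each orientation, the adjusted p was 0.0683 at the same ratio (5627 genes tested). Fbln2 at 0.55 (adjusted p = 0.223) and Fbln1 at 0.45 (adjusted p = 0.225), the fibulins that bind versican, did not pass. Adamts1, a protease that cuts versican, stood at -0.07 (adjusted p = 0.890) and Selp, the gene of P-selectin, at -0.19 (adjusted p = 0.639).

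**Figure D3:**
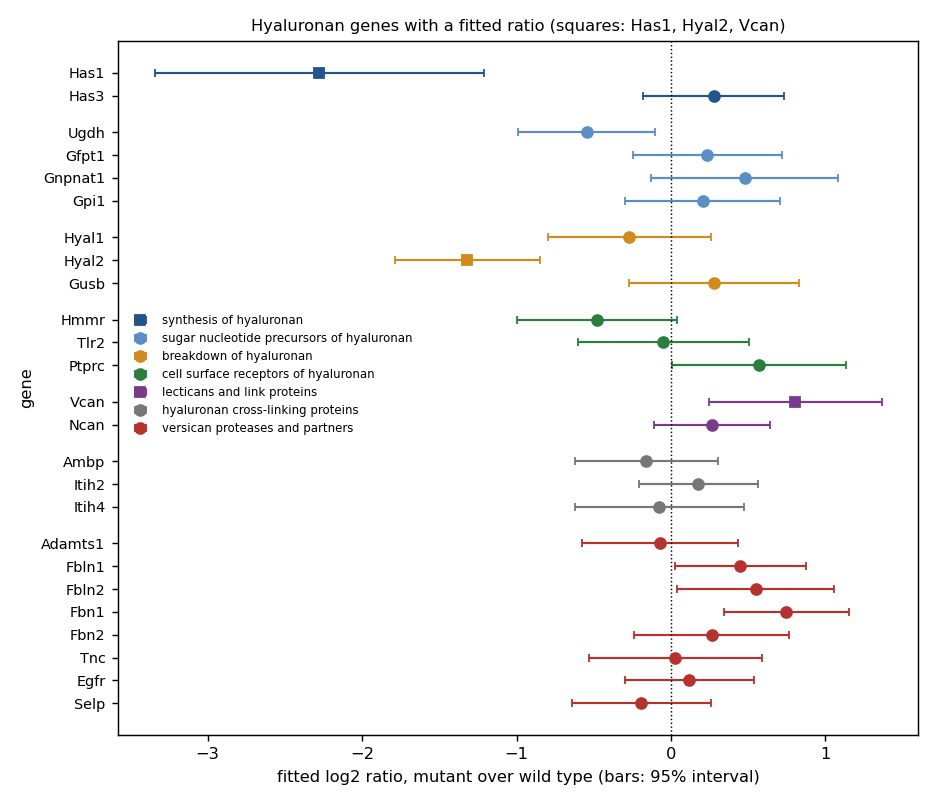
Fitted log2 ratio of mutant over wild type (horizontal axis) with its 95% interval for the 25 hyaluronan genes that had a fit (vertical axis), coloured by list, with Has1, Hyal2 and Vcan as squares. Has1 at -2.28 and Hyal2 at -1.32, genes chosen by their ratios, lie to the left of the other 22 genes. Those run from -0.54 for Ugdh to 0.75 for Fbn1.

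Markers of the cells that could carry these genes were read in the same fit. Of 8 tested markers of dermal fibroblasts, 2 were higher, Vim at 1.17 and Fbn1, beside 0.662% called higher over all genes. The call of Fbn1 was lost without any 1 array, in fits that also tested more genes. None of the 8 was called lower, and their median ratio was 0.75. Of the 8, 6 were above 0 and 2 below, Lum at -0.21 and Thy1 at -0.03. The median of the fibroblast markers with a value was above 0 on 7 of 8 arrays, from -0.08 to 1.29. Of 5 tested markers of the dermal papilla besides Vcan none passed, with a median of 0.21 and Fgf7 highest at 0.63 (adjusted p = 0.0969). Their part in the ratio of Vcan was not tested. Beside the low ratios of Has1 and Hyal2, the lists of macrophages and leukocytes, mast cells, vessels and adipocytes had median fitted ratios of 0.06, 0.05, 0.09 and 0.33. Over the arrays their medians ran from -0.60 to 0.84, -0.28 to 1.42, -0.35 to 0.71 and -1.56 to 1.46. In these 4 lists 2 markers were higher, Cfd of adipocytes at 1.96 (adjusted p = 0.0102) and Mcpt2, a protease of mast cells, at 1.05 (adjusted p = 0.00991). C1qb, a complement gene of macrophages, was lower, at -1.37 (adjusted p = 0.0141), beside 2.8% called lower over all genes. Other markers of these lists differed, with C1qa at 0.39, Mcpt4 at 0.05 and Car3 of adipocytes at -0.86, none of which passed. Tested markers above and below 0 were 3 and 3 for macrophages and leukocytes, 4 and 2 for mast cells, and 3 and 2 for adipocytes. Keratinocyte markers had 1 gene tested, Krt1, higher at 1.30 (adjusted p = 0.0241), and skeletal muscle 1, Tnnt3, at -1.23 (adjusted p = 0.0721). Keratinocyte markers without a fit were divided, with Krt15 at 0.47 ± 0.60 (SD, n = 6), Cdh1 at -0.15 ± 0.99 (SD, n = 5) and Trp63 at -0.62 ± 1.56 (SD, n = 6). The part of the cells in these lists in the ratios of Has1 and Hyal2 was not tested.

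The directions of the 3 ratios were the same under all 16 alternatives that gave them a value. Has1 and Hyal2 were below 0 on all 7 arrays with a value, so leaving out an array could not turn them. Array 3 held no value for the 3 genes, so leaving it out kept their ratios unchanged. The filter of at least 2 arrays of each orientation also returned the same ratios, since it changes only which genes are tested. The reading as Cy5 over Cy3 gives the dye parts, whose 95% intervals all held 0. Leaving aside the reading as Cy5 over Cy3, the ratio of Has1 ran from -2.61 to -1.73, that of Hyal2 from -1.61 to -1.17 and that of Vcan from 0.49 to 1.02. The ranges of Has1 and Hyal2 did not meet, with Has1 the lower, but they cover processings of the same values. The 95% intervals of their fitted ratios overlapped, at -3.34 to -1.21 for Has1 and -1.79 to -0.85 for Hyal2. With arrays 4 to 8 alone, where all 3 genes had values throughout, the ratios were -1.73, -1.32 and 0.96.

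**Figure D4:**
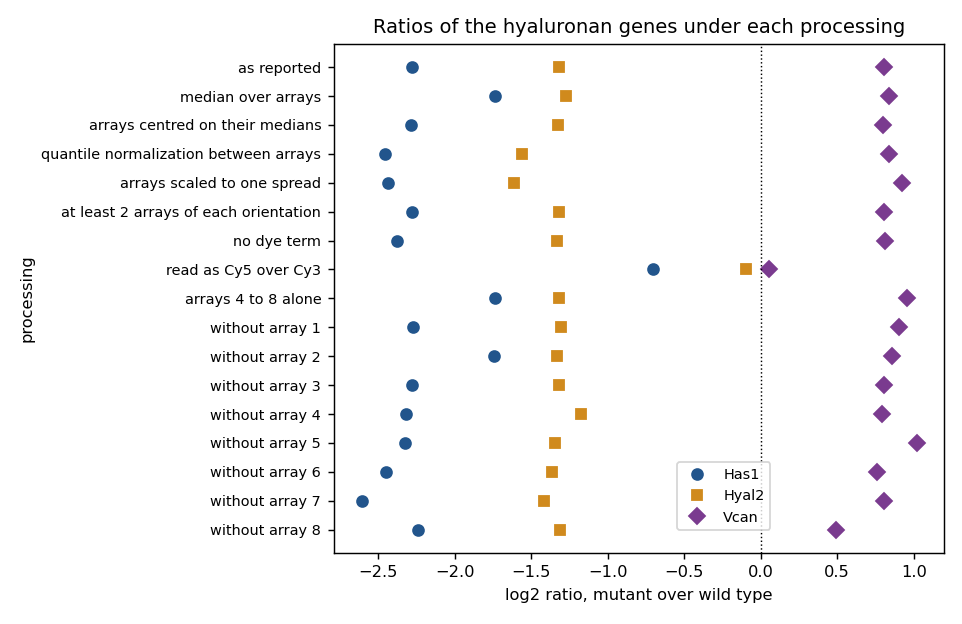
Log2 ratio of mutant over wild type (horizontal axis) for Has1, Hyal2 and Vcan under each processing (vertical axis). The order of the 3 genes is the same in every row, and read as Cy5 over Cy3 the ratios shrink to -0.70, -0.095 and 0.056.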

How the data were processed

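The authors deposited one log ratio of the 2 channels per spot and array, taken here as log2. How they analysed images, normalized, set values missing and chose base and direction is not given in the sources used here. The dyes come from the labels. Of 23232 rows, 1235 control rows were left out, and 6749 rows were named by RefSeq accession and 77 by synonym (names of assembly GRCm38.p6), giving 6587 genes; replicate spots and several probes of a gene were averaged.

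The table was read as already turned to mutant over wild type. Replicate Gapdh spots correlated below 0 in 16 of 16 pairs of arrays of opposite dye orientation (median r = -0.45) and above 0 in 12 of 12 pairs of the same orientation (median r = 0.55), so the part shared by the orientations was taken as the ratio. Over genes, only 6 of 16 pairs of opposite orientation correlated above 0 (median r = -0.026), so this reading is likely and not certain, as is the overall sign.

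Genes needed values on 3 or more of the 4 arrays in each dye orientation. The model held the mean ratio plus a term for the dye (limma 3.58.1, R 4.3.3, lmFit and eBayes), with Benjamini-Hochberg adjustment over all 3779 genes at 0.05, after the fit had been tested on simulated data. Has1, Hyal2, Vcan and the pathway lists were chosen with earlier results of these data known. Named genes are these 3, every called pathway gene, the highest and lowest tested ratio of each list, and the 3 genes most correlated with each; other genes named were added after their values were seen. Alternatives were array centring, quantile normalization, scaling of the spread, 2 other filters, no dye term, the reading as Cy5 over Cy3, arrays 4 to 8 alone and leaving out each array. When an array was left out, its orientation needed 2 values in place of 3. With arrays 4 to 8 alone, each orientation needed 2. Arrays are not separate animals, so p-values are too small and measure in part technical spread. No spot intensities were analysed here, so the number of arrays limits the precision.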

Additional observations from a re-analysis of the deposited data

Results flagged for a closer look

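Dixon's test was run on Has1, Hyal2, Vcan and the named pathway genes, 17 genes in all. In 2 of them 1 array lay far from the others. Chance alone marks about 1 group in 20, here 0.85, a rate that need not hold for genes chosen by their ratios, as these 2 were. The value of Has1 on array 2, which has the widest spread, was -6.18, and its next lowest was -2.75. Hyal2 had -2.29 on array 4, against -1.35 for its next lowest, while Has1 on array 4 was the next lowest of its values.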

How the results depend on the processing

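The count of genes past the threshold was 131. It was 360 with quantile normalization, 221 with arrays scaled to one spread, 81 with values required on all 8 arrays (1613 genes tested), 64 without a dye term and 66 read as Cy5 over Cy3 (62 higher and 4 lower). With arrays 4 to 8 alone it was 0 (limma, 741 at an unadjusted p below 0.05). Without 1 array it ran from 28 to 128, with 28, 84, 83, 70 and 60 without arrays 1, 2, 4, 5 and 6. These fits needed only 2 values in the orientation that had lost an array. They therefore tested more genes, from 3812 without array 6 to 5202 without array 3. Their counts mix the loss of an array with the change of genes tested. The count of pathway genes, 1 as reported, was 0 with arrays centred on their medians, with at least 2 arrays of each orientation, without a dye term, read as Cy5 over Cy3, with arrays 4 to 8 alone and without any 1 array, each with between 2 and 5 genes at an unadjusted p below 0.05. Read as Cy5 over Cy3, Hyal2 stood at -0.095 and Vcan at 0.056. Has1, Hyal2 and Vcan could not be fitted with values required on all 8 arrays, since array 3 held none. No alternative gave a dye part past the threshold for these 3 genes (lowest adjusted p = 0.179). Of 215 values of the other named pathway genes under alternatives, 187 kept their side of the threshold, 26 lost the call and 2 gained it, the last both for Fmod. The causes were not tested.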

Other observations

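Proteoglycans of skin that do not bind hyaluronan were read beside Vcan. Of 12 tested, 1 was higher, beside 0.662% called higher over all genes. It was Aspn, the gene of the small matrix proteoglycan asporin, at 1.01 ± 0.24 (SE, limma, adjusted p = 0.0444) and above 0 on 7 of 7 arrays. The call of Aspn was lost in each fit that left out 1 array (adjusted p up to 0.111). Array 1 held no value for Aspn, so leaving out that array kept the ratio at 1.01, with 5003 genes tested in place of 3779. None of the 12 was lower and 11 did not pass, with a median ratio of -0.04. Fmod, which binds collagen fibrils, was below 0 on 7 of 7 arrays at -0.84 (adjusted p = 0.116), and passed with quantile normalization (0.0296) and with arrays scaled to one spread (0.0452). Sdc2, a membrane proteoglycan, stood at 0.65 (adjusted p = 0.0846). Dcn, the gene of decorin, ran from -4.71 to 3.32 across 7 arrays.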
